A study of Mus musculus with 2 samples.

Results

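Rag1, Rag2 and Dntt encode proteins that cut antigen receptor gene segments, or add nucleotides where they are joined, in developing lymphocytes. The 3 genes were picked by name from a single-cell count matrix of thymus that lists 20282 genes, and all 3 were in it. A level below is the number of UMIs (unique molecular identifiers, each marking 1 captured transcript) per 1000000 UMIs of the same cells, written CPM, followed by its exact 95% Poisson interval. Both libraries were made from whole thymus of 6-week-old mice with the 10x Chromium 3' kit, each from 5 pooled mice. The WT library came from Cdc42f/f mice, which carry floxed alleles of Cdc42, a small GTPase that organises actin. The KO library came from Cdc42f/f CD4Cre mice, which carry the same floxed alleles and a Cre recombinase driven by Cd4 regulatory sequence. CD4Cre is known to act from the end of the double negative (DN) stage, so the youngest thymocytes still hold intact Cdc42 alleles. With 1 library per condition no difference between conditions was tested, and every interval covers counting error only.

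RAG1 and RAG2 form the recombinase that cuts DNA at the signal sequences beside V, D and J segments, and Dntt encodes terminal deoxynucleotidyl transferase (TdT), which adds untemplated nucleotides at the junctions. In the thymus the Tcrb locus is rearranged in DN cells, a burst of division follows, and the Tcra locus is rearranged in resting CD4+CD8+ double positive (DP) cells. Expression of the recombinase ends once a DP cell has been positively selected and becomes single positive (SP).

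The clusters are the 19 that the authors deposited, gathered here into groups named by a stage or by a leading gene. DP clusters 0 to 4 had Arpp21 at 1467 CPM and Cd8b1 at 3467 CPM in WT, against 45.9 CPM and 504 CPM in the Itm2a cluster (cluster 6). Clusters 5 and 9 form the Cd5 group, with Cd5 and Egr1, genes induced by T cell receptor signals, at 1084 CPM and 513 CPM. The Ms4a4b cluster (cluster 7) had the egress receptor S1pr1 at 261 CPM, against 19 CPM in the Itm2a cluster, and these 2 are called SP clusters. For the Itm2a cluster the name is a label only. Its 6 signalled DP markers, Itm2a among them, summed to 2830 CPM in WT and 3704 CPM in KO, and its 6 SP markers to 1079 CPM and 846 CPM. The Ms4a4b cluster had 763 CPM and 829 CPM, then 3246 CPM and 4860 CPM. Cells still leaving the DP stage were not told apart in the Itm2a cluster. The Myl10 cluster (cluster 14) had Il2ra, which marks DN cells, at 511 CPM. The proliferating group holds clusters 10 to 13, 17 and 18, which were highest in Top2a and Mki67. The non-T clusters were the Cd74 and Apoe clusters. In the Cd74 cluster 6 B cell markers summed to 4874 CPM in WT and 40904 CPM in KO. Its 6 dendritic cell markers summed to 11634 CPM and 7592 CPM. In the Apoe cluster 6 macrophage markers summed to 39165 CPM and 32810 CPM. In the DP, Cd5 and SP groups the B cell markers summed to 82.6 to 417 CPM and the macrophage markers to 4.26 to 47.5 CPM. The Lars2 cluster (cluster 8) had few UMIs per cell, with medians of 956 and 1200, and a median mitochondrial share of 18.6% in WT and 15.7% in KO.

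The WT library held 6115 cells and 29706197 UMIs and the KO library 7568 cells and 37920214 UMIs, with medians of 3192 and 3401 UMIs per cell. The libraries shared 17 cell barcodes. The cell names carry Cdc45 in place of Cdc42, and directions below rest on the WT or KO in those names. Cdc42 itself was at 358 CPM in WT and 320 CPM in KO in the DP clusters and at 447 CPM and 581 CPM in the Ms4a4b cluster. The floxed exon lies towards the 5' end and the kit reads the 3' end, so Cdc42 UMIs do not check the labels.

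Rag1 and Rag2 are neighbours on mouse chromosome 2, read towards each other. In the GRCm38 annotation (GENCODE vM21) Rag1 occupies chr2:101638282-101649501 on the minus strand and Rag2 chr2:101624718-101632529 on the plus strand, and 5752 bases separate their ends. Dntt lies apart at chr19:41029275-41059525 on the plus strand. B230118H07Rik (chr2:101560781-101649532, minus strand) spans both Rag genes. It starts 31 bases upstream of the annotated Rag1 start, and 3 of its 12 transcripts share 80 exonic bases with Rag1, so reads there cannot be assigned to one gene.

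The promoters are shown because the levels of Rag1 and Rag2 followed each other across clusters more closely than that of Dntt. Each is the 250 bases before the start that RefSeq gives (GRCm38.p6), written 5′ to 3′ on the gene's own strand, and capitals mark matches to CANNTG, the E-box letters bound by the factors encoded by Tcf3 and Tcf12.
Rag1 (chr2:101649533-101649782, minus strand): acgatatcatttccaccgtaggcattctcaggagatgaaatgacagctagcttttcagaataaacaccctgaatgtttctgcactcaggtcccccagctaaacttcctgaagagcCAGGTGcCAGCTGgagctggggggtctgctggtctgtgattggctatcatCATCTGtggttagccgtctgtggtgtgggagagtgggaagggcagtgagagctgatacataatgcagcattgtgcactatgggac
Rag2 (chr2:101624462-101624711, plus strand): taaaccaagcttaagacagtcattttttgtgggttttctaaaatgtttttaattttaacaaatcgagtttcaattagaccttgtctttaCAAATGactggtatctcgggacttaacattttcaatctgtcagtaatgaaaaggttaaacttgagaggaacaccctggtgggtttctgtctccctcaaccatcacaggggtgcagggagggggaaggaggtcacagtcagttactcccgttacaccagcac
Dntt (chr19:41029025-41029274, plus strand): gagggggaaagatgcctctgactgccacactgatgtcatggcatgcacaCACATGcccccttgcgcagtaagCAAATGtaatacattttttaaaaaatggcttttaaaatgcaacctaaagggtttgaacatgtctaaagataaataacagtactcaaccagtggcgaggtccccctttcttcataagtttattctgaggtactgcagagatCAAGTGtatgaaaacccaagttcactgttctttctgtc
The Rag1 window held 3 matches to CANNTG, the Rag2 window 1 and the Dntt window 3, and 66.2% of the 32851 RefSeq promoter windows of this length held at least 1. TGTGGT, the core letters bound by Runx factors, occurred 2 times before Rag1, 81 and 67 bases upstream of the start, and the first copy overlaps the CATCTG match that begins 85 bases upstream. TGTGGT was in 14% of all windows, and neither the Rag2 nor the Dntt window held it. Rag1 also had 1 match to CCAAT (33.8% of windows) and 1 to GGAAGT (19.7%), both on the opposite strand. GATAAG (6.55% of windows) and TGTTTAC (3.17%) were in none of the 3 windows. All motifs were searched on both strands.

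Rag1 was most abundant in DP cells, where Rag2 and Dntt were also high. It was at 2925 CPM (2893 to 2957; 31787 UMIs in 3636 cells) in the DP clusters of WT and at 2755 CPM (2729 to 2782; 42333 UMIs in 4641 cells) in KO. Rag1 UMIs were seen in 97.4% of DP cells in WT and 97.8% in KO, with a median of 8 UMIs per cell in both. Rag2 was at 226 CPM (217 to 235) and 232 CPM (224 to 239) and was seen in 44.97% and 48.2% of these cells. Dntt was at 1549 CPM (1526 to 1573) and 1413 CPM (1395 to 1432) and was seen in 94.9% and 95.1%. UMIs of both Rag1 and Dntt were found in 92.8% of DP cells in WT and 93.3% in KO, and 0.495% and 0.388% had a UMI of none of the 3 genes. Thinned to 1000 UMIs per cell, the shares for Rag1 were 88.9% and 87.2%, those for Rag2 20.3% and 19.8%, and those for Dntt 74.7% and 72.4%.

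**Figure D1:**
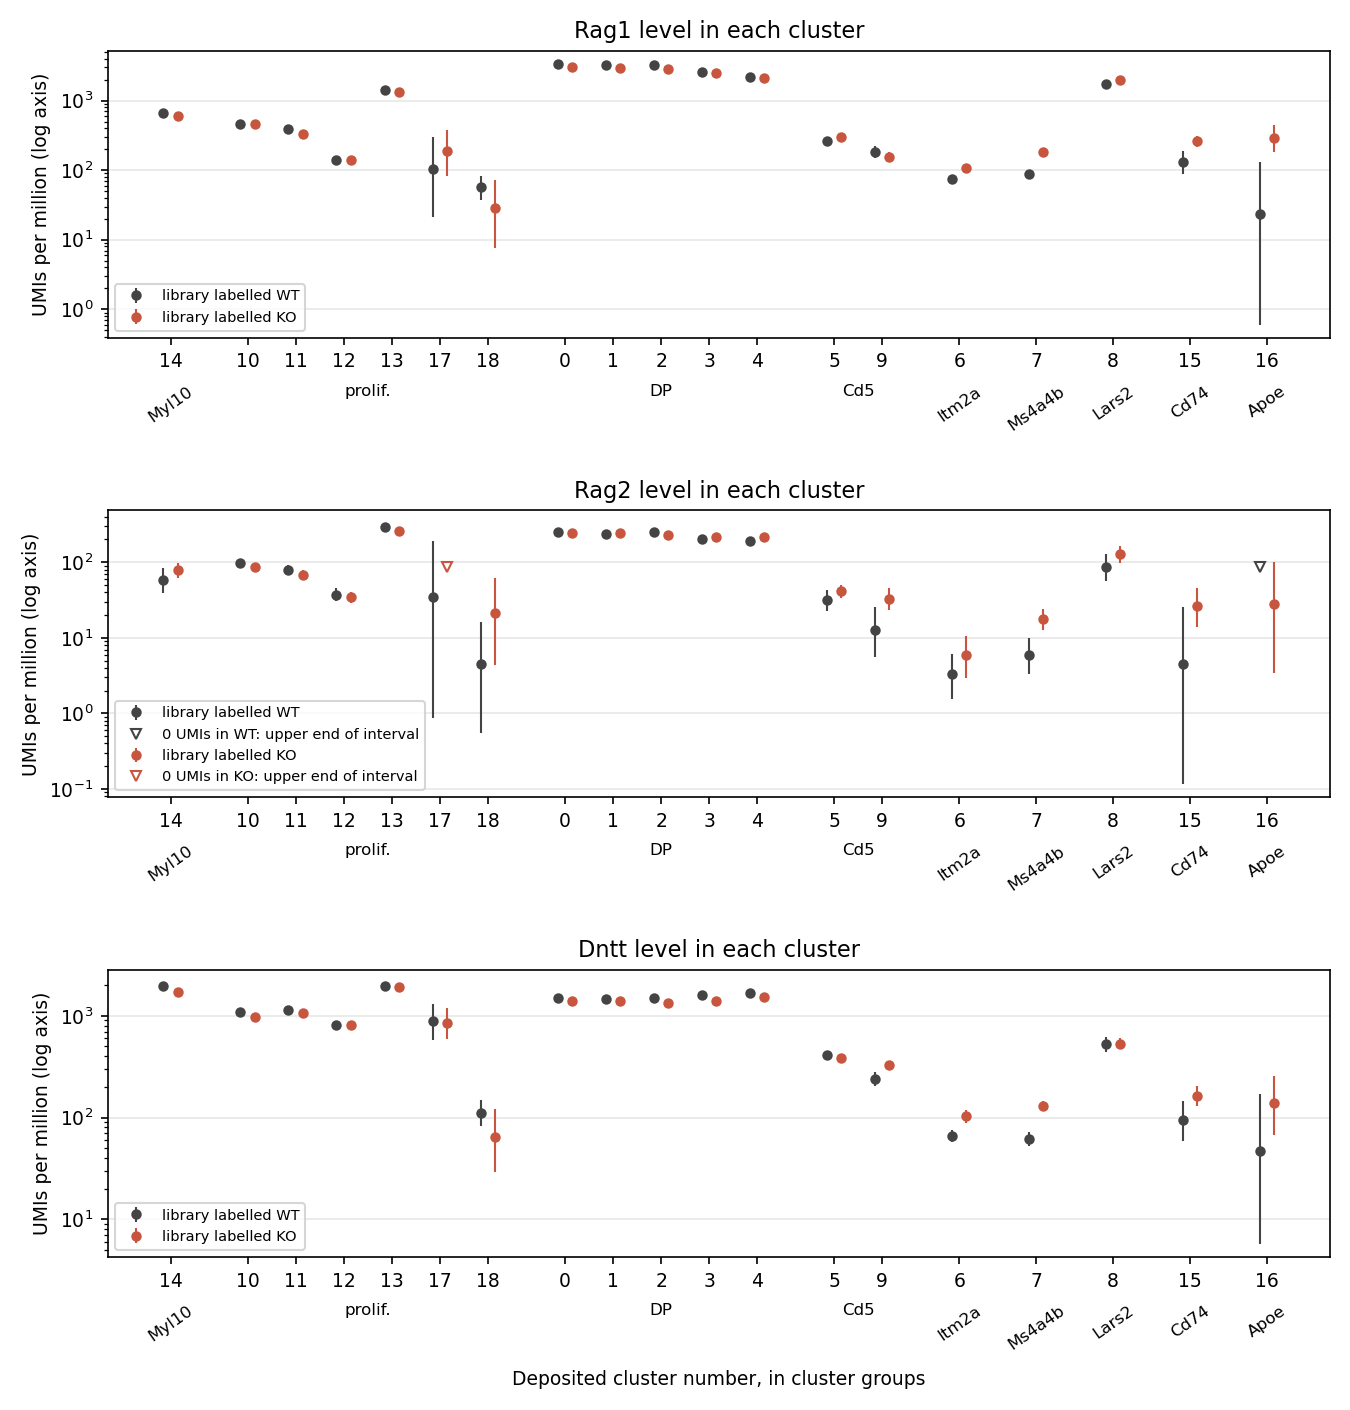
Level of Rag1, Rag2 and Dntt (CPM, log axis) in each deposited cluster, ordered by cluster group, for the WT and KO libraries, with exact 95% Poisson intervals as bars and open triangles at the upper end of the interval where no UMI was seen. Rag1 is highest in clusters 0 to 2 (2880 to 3310 CPM), while Dntt is as high in clusters 13 and 14 (1725 to 1979 CPM) as anywhere.

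Ranked over the 19 clusters, Rag1 was highest in clusters 0, 1 and 2 in both libraries, and the neighbours among these 3 had overlapping intervals. Clusters 3 and 4 followed with intervals that did not overlap those above them. Rag2 had its highest value in cluster 13, a proliferating cluster, at 291 CPM (259 to 326) in WT and 256 CPM (228 to 288) in KO. The intervals of cluster 13 and of DP clusters 0 to 4 formed an unbroken chain of overlaps in both libraries. Dntt was highest in the Myl10 cluster and cluster 13, at 1979 CPM (1861 to 2102) and 1951 CPM (1866 to 2040) in WT, which could not be told apart. KO had 1900 CPM (1820 to 1982) in cluster 13 and 1725 CPM (1644 to 1809) in the Myl10 cluster.

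Before the DP stage Dntt was already high and Rag1 was not. In the Myl10 cluster Rag1 was at 656 CPM (589 to 729) in WT and 605 CPM (557 to 655) in KO, or 22.4% and 21.9% of the DP level, and Rag2 was at 25.9% and 34.0% of it. Dntt stood at 128% (120 to 136) of its DP level in WT and 122% (116 to 128) in KO, with at least 1 UMI in all 54 WT cells and all 99 KO cells.

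Dividing cells were low in Rag1. The proliferating group had Rag1 at 428 CPM (416 to 441) in WT and 387 CPM (376 to 398) in KO, or 14.6% and 14.04% of the DP level. On the log2 scale these differences from DP were -2.77 and -2.83. Rag2 kept 39.9% and 33.6% of its DP level and Dntt 69.1% and 71.9%. Rag1 alone of the 3 was lower by log2 2 or more, in both libraries, where 5.02% of 12607 genes were in WT and 5.84% of 13314 in KO. These cells are deep, with medians of 11882 and 14537 UMIs, and at 1000 UMIs per cell 33.1% and 35.03% of them had a Rag1 UMI. CPM is relative to all UMIs, and counts per cell gave another order. Dntt had medians of 14 and 15 UMIs per dividing cell, against 4 in DP cells of both libraries. Rag2 was seen in 56.25% and 57.6% of dividing cells, against 44.97% and 48.2% of DP cells. Rag1 had a median of 4 UMIs in both libraries, against 8 in DP cells.

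The dividing clusters differed among themselves. Cluster 12 had Rag1 at 139 CPM in both libraries, Rag2 at 37.4 CPM and 34.4 CPM, and Dntt at 816 CPM and 809 CPM. Cluster 13 had Rag1 at 1438 CPM (1365 to 1514) in WT and 1337 CPM (1271 to 1407) in KO, below the DP level, with Rag2 and Dntt above theirs. Its cells had medians of 5466 and 7032 UMIs against 19013 and 22445 in cluster 12. Clusters 17 and 18 were small, with 26 and 24 cells in WT, and held 3 and 25 Rag1 UMIs.

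The balance between the genes therefore changed with stage, and was read as UMIs of one gene per UMI of another. Such a ratio also reflects how well each transcript is captured, so only its change across clusters is compared. Dntt per Rag1 was 3.01 (2.67 to 3.41) in the Myl10 cluster, 5.88 (5.30 to 6.55) in cluster 12 and 1.36 (1.27 to 1.45) in cluster 13 of WT. KO had 2.85, 5.81 and 1.42.

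Within the DP clusters Rag1 declined from 3310 CPM in cluster 0 to 2606 CPM in cluster 3 and 2201 CPM in cluster 4 of WT, while Dntt went from 1510 CPM to 1607 CPM and 1667 CPM. Dntt per Rag1 was thus 0.456 (0.439 to 0.474), 0.617 (0.589 to 0.646) and 0.757 (0.725 to 0.790). In KO it was 0.452, 0.569 and 0.720, with intervals that did not overlap each other. Median depth moved with this order, at 2540, 3116 and 3596 UMIs per cell in WT, and its part in the ratio was not tested.

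Rag1 per Rag2 was 12.96 (12.4 to 13.5) in the DP clusters of WT and 11.9 (11.5 to 12.3) in KO. In the proliferating group it was 4.75 (4.43 to 5.10) and 4.97 (4.64 to 5.32), so the pair did not keep 1 proportion between dividing and resting cells. All 4 larger dividing clusters lay between 3.71 and 5.29. The Cd5 group lay between, at 9.33 (6.94 to 12.8) in WT and 6.65 (5.53 to 8.05) in KO.

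**Figure D2:**
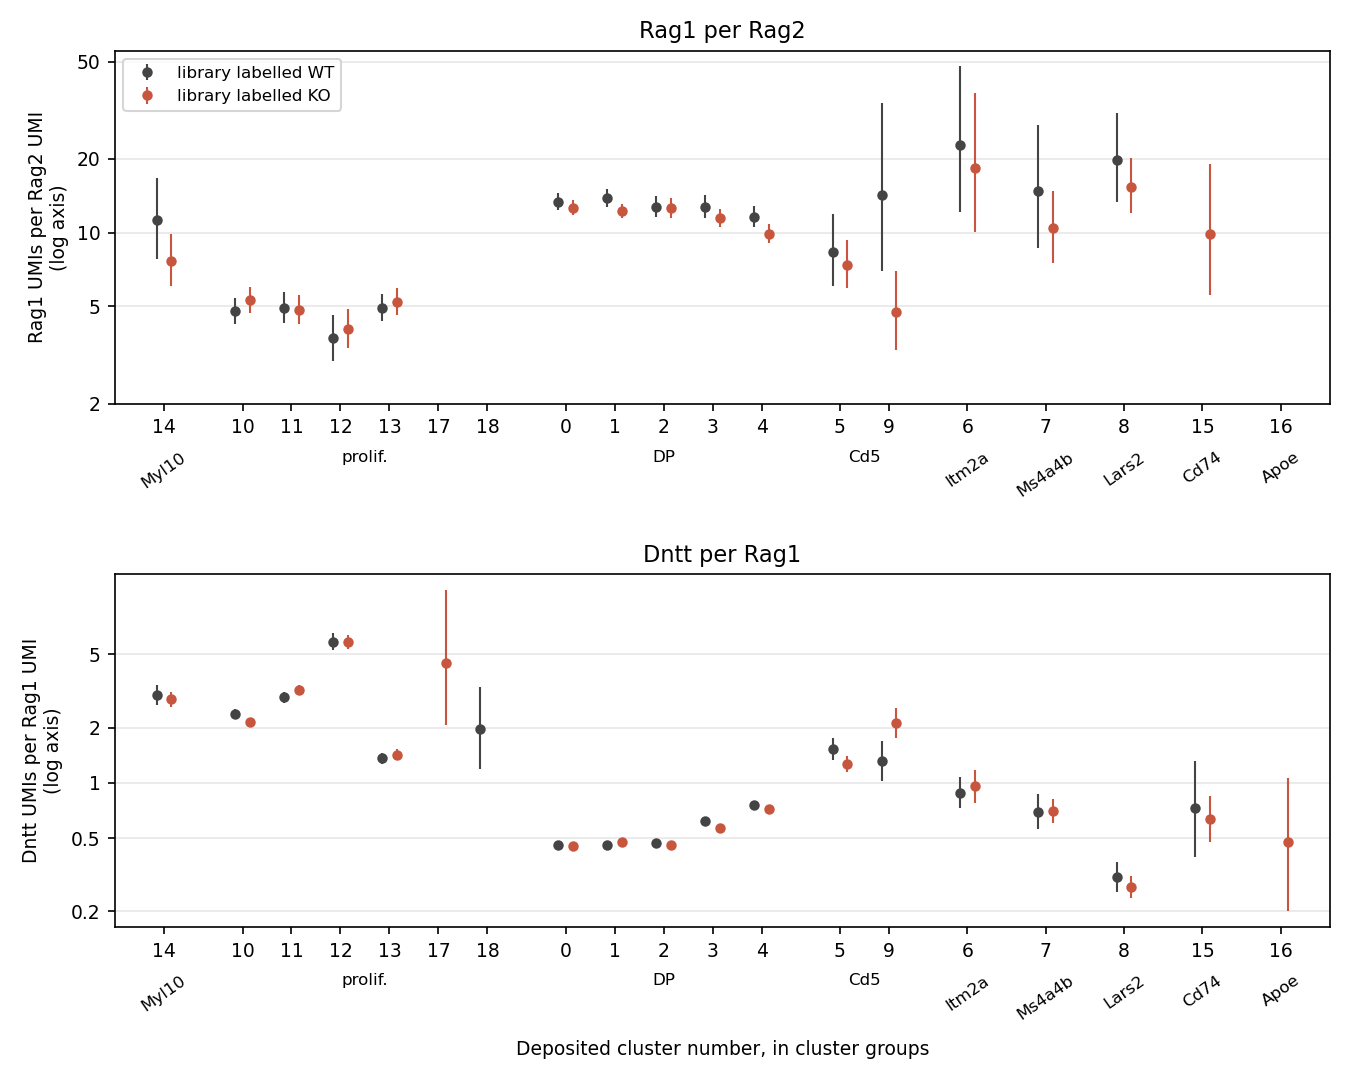
Rag1 UMIs per Rag2 UMI and Dntt UMIs per Rag1 UMI (log axes) in each deposited cluster with at least 5 UMIs of both genes, for the WT and KO libraries, with exact 95% intervals as bars. Rag1 per Rag2 lies between 3.71 and 5.29 in dividing clusters 10 to 13 and between 9.91 and 13.8 in DP clusters, and Dntt per Rag1 climbs from cluster 0 to cluster 4.

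Cells with signs of receptor signalling had much less of all 3 transcripts. Rag1 in the Cd5 group was at 239 CPM (218 to 262) in WT and 255 CPM (238 to 272) in KO, 8.18% and 9.24% of the DP level. Rag2 was at 25.7 CPM (18.99 to 33.9) and 38.3 CPM (32.0 to 45.4), or 11.4% and 16.5%. Dntt was at 353 CPM (327 to 381) and 367 CPM (347 to 387), or 22.8% and 25.9%, the largest remainder of the 3. All 3 were lower by log2 2 or more in WT, at -3.61, -3.12 and -2.13, where 2.26% of genes were. In KO 2 of 3 were, since Dntt was at -1.95, against 1.75% of genes. Most Cd5 cells had no Rag1 UMI: 22.6% had one in WT and 27.4% in KO.

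Little of the 3 transcripts was left in the SP clusters. Rag1 in the Itm2a cluster was at 74.7 CPM (65.3 to 85.1; 228 UMIs) in WT and 107 CPM (93.1 to 123; 202 UMIs) in KO. The Ms4a4b cluster had 88.9 CPM (77.2 to 102; 207 UMIs) and 184 CPM (167 to 203; 418 UMIs). Rag2 was at 3.28 CPM (10 UMIs) and 5.85 CPM (11 UMIs) in the Itm2a cluster and at 6.01 CPM (14 UMIs) and 17.6 CPM (40 UMIs) in the Ms4a4b cluster. Dntt was at 65.9 CPM and 103 CPM in the first and 61.8 CPM and 129 CPM in the second.

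As a share of the DP level of the same library, Rag1 stood at 2.55% (2.23 to 2.91) in the Itm2a cluster of WT and 3.90% (3.38 to 4.47) of KO. Its share in the Ms4a4b cluster was 3.04% (2.64 to 3.48) and 6.69% (6.06 to 7.37). For Rag2 the shares were 1.45% and 2.53% in the Itm2a cluster and 2.66% and 7.62% in the Ms4a4b cluster. Dntt had 4.25% and 7.26%, then 3.99% and 9.15%. All 3 genes were lower than in DP by log2 2 or more in each of the 4 comparisons. Of all genes, 5.81% (WT) and 4.99% (KO) were that low in the Itm2a cluster, and the Ms4a4b cluster had 7.19% and 5.71%.

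Mature B cells and macrophages are not known to transcribe these genes, so the non-T clusters were used as a background level. Free RNA from lysed thymocytes or an attached thymocyte could supply it. Which of these supplied it was not tested. Whether cells with dendritic cell markers in the Cd74 cluster transcribe the genes was not tested either. Rag1 in the Cd74 cluster was at 132 CPM (88.3 to 189; 29 UMIs in 63 cells) in WT and 259 CPM (216 to 309; 128 UMIs in 87 cells) in KO, 4.51% (3.02 to 6.48) and 9.42% (7.86 to 11.2) of the DP level. Rag2 had 1 UMI and 13 UMIs there, or 2.01% and 11.4% of DP. Dntt was at 6.16% (3.81 to 9.42) and 11.6% (9.22 to 14.4). The Apoe cluster had 1 Rag1 UMI in 30 WT cells and 21 in 49 KO cells, 0.809% (0.0205 to 4.51) and 10.7% (6.62 to 16.3) of DP. Rag2 had 0 of 42283 UMIs in the Apoe cluster of WT, with an exact interval up to 87.2 CPM (3 counts of that total would be 71.0 CPM). Point values of the Rag1 and Dntt shares of the SP clusters were thus below those of the Cd74 cluster in the same library. The intervals overlap for Rag1 in the Ms4a4b cluster of WT, and for Dntt in all but the Itm2a cluster of KO. Rag2 in the Ms4a4b cluster of WT, at 2.66%, was above the Cd74 value of 2.01%, which rests on 1 UMI. In WT the Rag1 and Dntt shares of the SP clusters were above those of the Apoe cluster, within intervals that overlap. Dntt was at 3.05% (0.370 to 11.03) in that Apoe cluster, from 2 UMIs. No expression in SP cells is read from levels this close to those of non-T clusters. The non-T cells were shallower, with median depths in WT and KO of 1202 and 4284 UMIs (Cd74) and 875 and 695 (Apoe). The Itm2a cluster had 5714 and 5363 and the Ms4a4b cluster 6738 and 5032. The part of depth in these shares was not tested. Thinned to 1000 UMIs, 3.97% and 5.74% of WT cells in the Itm2a and Ms4a4b clusters had a Rag1 UMI. The Cd74 cluster of WT had 8.82% (1.86 to 23.7, 3 of 34 cells). In KO the shares were 5.71% and 8.59% against 13.2% (6.49 to 22.9). These Cd74 intervals overlap those of both SP clusters.

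The shallow Lars2 cluster kept much of its Rag1, at 58.5% (53.4 to 63.9) of the DP level in WT and 71.1% (66.8 to 75.7) in KO. Rag2 there was at 38.2% and 54.9% and Dntt at 33.8% and 37.6%. Dntt per Rag1 was the lowest of all groups, at 0.306 (0.254 to 0.368) and 0.271 (0.236 to 0.310).

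The same calculation on 19 T-lineage genes, among them Cd3e, Cd8a, Trac and Lck, gave a median of 7.36% of DP in the Cd74 cluster of WT and 11.3% in KO. In the Apoe cluster the medians were 1.805% and 11.2%. Rag1, Rag2 and Dntt lay within the range of these 19 genes in both non-T clusters of both libraries. Dntt per Rag1 was 0.724 (0.393 to 1.31) in the Cd74 cluster of WT and 0.633 (0.473 to 0.842) in KO, and 0.530 (0.520 to 0.540) and 0.513 (0.505 to 0.521) in the DP clusters. In the SP clusters it was higher than in DP, at 0.882 (0.726 to 1.07) and 0.955 (0.780 to 1.17) in the Itm2a cluster and 0.696 (0.558 to 0.865) and 0.701 (0.602 to 0.816) in the Ms4a4b cluster.

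**Figure D3:**
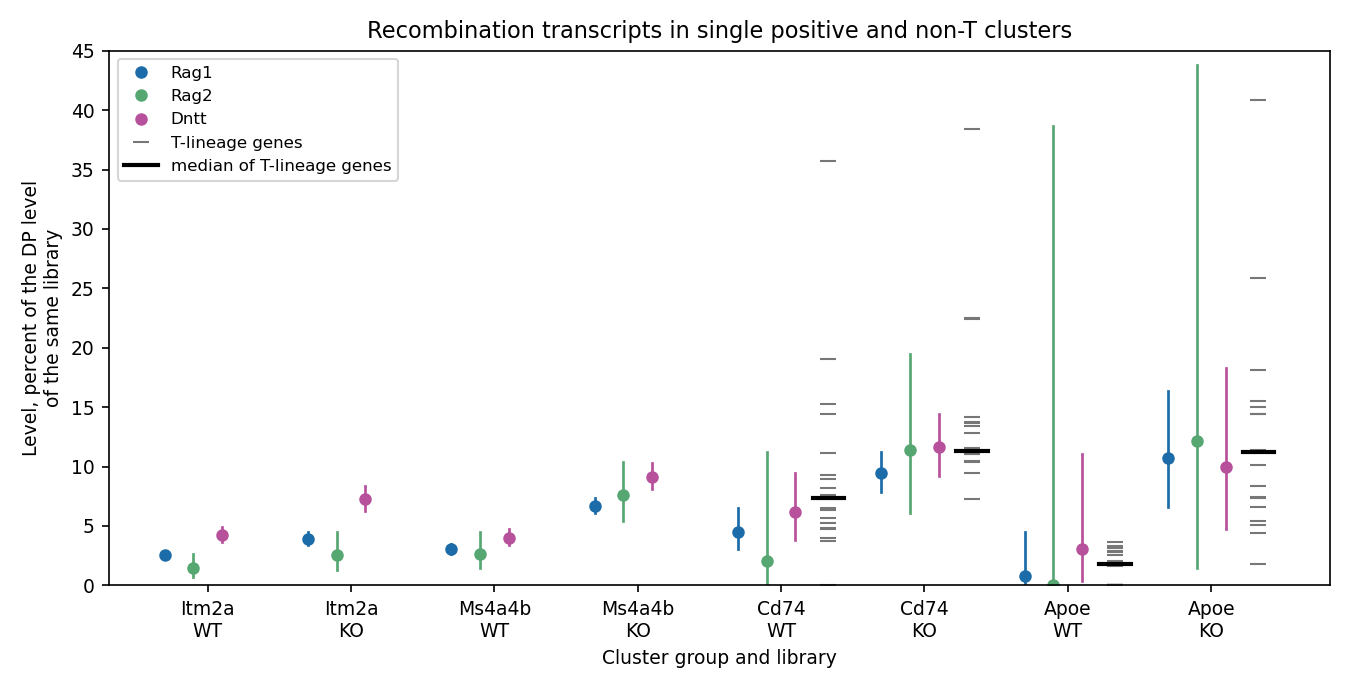
Level of Rag1, Rag2 and Dntt in the 2 SP and 2 non-T clusters as a percentage of the DP level of the same library, with exact 95% intervals, beside 19 T-lineage genes (grey) and their median (black) in the non-T clusters. Rag1 in the SP clusters is at 2.55% to 6.69% and in the Cd74 cluster at 4.51% to 9.42%; Cd4 in the Apoe cluster, at 119% in WT and 48.2% in KO, lies above the axis.

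The Rag1 UMIs of SP clusters were not spread evenly over cells. In the Ms4a4b cluster 17 of 332 WT cells had 5 or more Rag1 UMIs and held 83.1% of the Rag1 UMIs of the cluster, and 35 of 396 KO cells held 83.3%. The Itm2a cluster had 19 of 479 WT cells with 79.8% and 17 of 316 KO cells with 82.7%. The same was seen outside the T lineage, where 2 of 63 WT cells and 9 of 87 KO cells of the Cd74 cluster held 72.4% and 82.0%.

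These cells, chosen by their Rag1 count, also held other DP transcripts. Rag2 was at 54.9 CPM in the Rag1-rich cells of the Ms4a4b cluster in WT and 93.5 CPM in KO, against 2.31 CPM and 6.10 CPM in the rest. Dntt was at 506 CPM and 615 CPM against 28.2 CPM and 55.4 CPM. Arpp21, a gene of DP cells, was at 445 CPM and 611 CPM against 19.4 CPM and 59.5 CPM. Ms4a4b, the marker of the cluster, was at 1250 CPM and 1417 CPM against 1617 CPM and 1944 CPM, so both programmes were read from the same barcodes. Their median depth was 8222 UMIs in WT and 8016 in KO, against 6672 and 4815 in the rest.

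Many of them scored high as doublets, droplets that caught 2 cells. Among the 6% of barcodes of each library with the highest Scrublet scores were 12 of the 17 WT cells and 26 of the 35 KO cells of the Ms4a4b cluster, and 13 of 19 and 13 of 17 of the Itm2a cluster. The score is computed from all genes, these 3 included. Without those barcodes Rag1 was at 1.24% of DP in the Ms4a4b cluster of WT and 2.51% of KO, and at 1.28% and 1.52% in the Itm2a cluster. Dntt was at 2.36% and 2.94% in the Ms4a4b cluster and at 2.75% and 4.11% in the Itm2a cluster. In the Cd74 cluster 0 of the 2 WT cells and 1 of the 9 KO cells were among them, and without those barcodes Rag1 there was at 3.97% and 8.04% of DP.

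**Figure D4:**
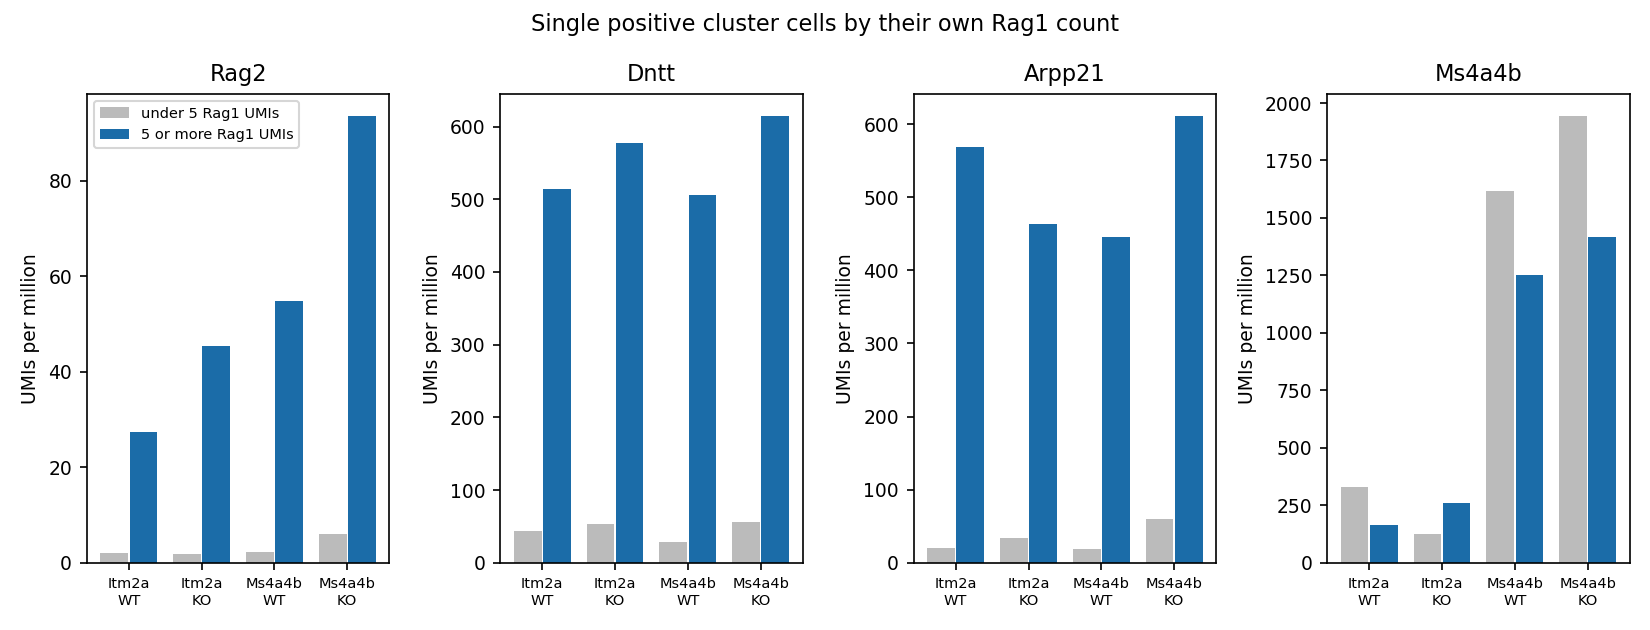
Level (CPM, linear axes from 0) of Rag2, Dntt, Arpp21 and Ms4a4b in cells of the Itm2a and Ms4a4b clusters with under 5 (grey) or 5 or more (blue) Rag1 UMIs, in each library. Cells with 5 or more carry Dntt at 506 to 615 CPM against 28.2 to 55.4 CPM in the others, and those of the Ms4a4b cluster keep Ms4a4b at 1250 and 1417 CPM.

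Between the libraries the 3 genes differed little in DP cells. The log2 ratio of KO over WT was -0.09 (-0.11 to -0.07) for Rag1, 0.04 (-0.04 to 0.11) for Rag2 and -0.13 (-0.16 to -0.10) for Dntt, beside a median of 0.05 over all 12983 genes with at least 20 UMIs. None of the 3 was past a log2 ratio of 0.5 in either direction, where 7.44% of genes were higher and 3.08% lower.

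In the proliferating group the ratios were -0.15 (-0.20 to -0.09), -0.21 (-0.34 to -0.08) and -0.07 (-0.11 to -0.04) for Rag1, Rag2 and Dntt, with 0 of 3 past 0.5 against 7.21% of genes higher and 4.12% lower. The Myl10 cluster had -0.12 (-0.31 to 0.08), 0.42 (-0.19 to 1.08) and -0.20 (-0.31 to -0.09), again 0 of 3, with 14% of genes higher and 10.3% lower.

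In the Cd5 group Rag1 and Dntt were at 0.09 (-0.08 to 0.26) and 0.05 (-0.08 to 0.19). Rag2 was at 0.57 (0.09 to 1.08), from 49 UMIs in WT and 131 in KO, the 1 of 3 past 0.5 where 9.38% of genes were higher and 4.88% lower. Cluster 9 had 12.8 CPM in WT (8 UMIs) and 32.8 CPM in KO (37 UMIs), and cluster 5 had 31.9 CPM (41 UMIs) and 41.0 CPM (94 UMIs). Thinned to 1000 UMIs per cell the ratio was 0.081.

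Point values of the 3 transcripts were higher in KO in both SP clusters, with intervals above 0 except for Rag2 in the Itm2a cluster (10 and 11 UMIs). These intervals treat each UMI as independent, although few cells held most Rag1 UMIs. Counted by cells, 11.9% (9.14 to 15.1) of WT and 12.97% (9.47 to 17.2) of KO cells of the Itm2a cluster had a Rag1 UMI. The Ms4a4b cluster had 12.3% (9.01 to 16.4) and 20.2% (16.4 to 24.5). The ratios in the Itm2a cluster were 0.52 (0.24 to 0.80) for Rag1, 0.83 (-0.54 to 2.23) for Rag2 and 0.64 (0.35 to 0.93) for Dntt, 3 of 3 past 0.5, where 15.8% of genes were higher and 6.68% lower. In the Ms4a4b cluster they were 1.05 (0.81 to 1.3), 1.52 (0.64 to 2.55) and 1.06 (0.77 to 1.36), 3 of 3, where 27% were higher and 7.03% lower. The median of all genes was 0.16 and 0.24 in these clusters, so relative to it Rag1 was at 0.37 and 0.81. The Cd74 cluster, of non-T cells, had a ratio of 0.96 (0.39 to 1.61) for Rag1 and 0.76 (0.08 to 1.55) for Dntt. Its B cell markers, given above, also differed between libraries, and their part in these ratios was not tested.

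The SP ratios moved with the barcodes that scored as doublets, of which the Ms4a4b cluster held 17 in WT and 46 in KO. Without them Dntt in the Ms4a4b cluster was at 0.18, Rag1 at 0.93 and Rag2 at 1.02, and the Itm2a cluster had 0.16 for Rag1, 0.31 for Rag2 and 0.45 for Dntt. Taken as a mean over cells the Itm2a cluster gave 0.080 for Rag1 and 0.18 for Dntt, and with the authors' finer clusters Rag1 was at 0.19. None of the 3 was past 0.5 in the Itm2a cluster without those barcodes, and Rag1 and Rag2 but not Dntt were in the Ms4a4b cluster. In cells thinned to 1000 UMIs, Rag2 in the Ms4a4b cluster was at 0.27. At resolution 1.8, finer cluster 12, mostly of Itm2a cells (173 in WT, 186 in KO), had lower values in KO. Rag1 was at 186 CPM (158 to 218) and 134 CPM (113 to 159) there, with intervals that met only at their ends. Dntt was at 153 CPM (128 to 182) and 123 CPM (103 to 147). Finer cluster 10 (325 and 136 cells) went the other way. It had Rag1 at 56.4 CPM (47.0 to 67.1) and 77.9 CPM (60.5 to 98.8), within overlapping intervals. Its Dntt was at 46.6 CPM (38.1 to 56.5) and 83.6 CPM (65.6 to 105), with intervals that did not overlap. Finer cluster 20 held 5 and 1 Rag1 UMIs. The part of this cell mix in the ratios was not tested.

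**Figure D5:**
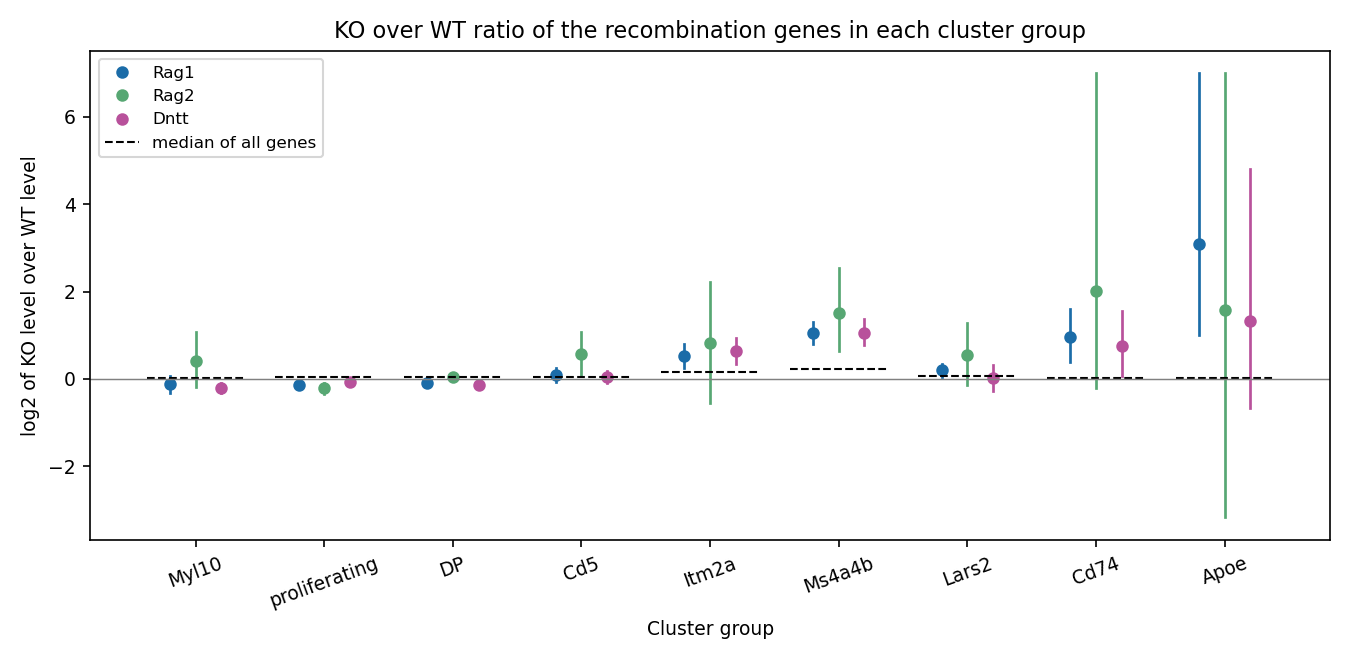
Log2 ratio of the KO level over the WT level of Rag1, Rag2 and Dntt in each cluster group, with exact 95% intervals cut at 7 and the median of all genes with at least 20 UMIs as a dashed line. The DP ratios lie between -0.13 and 0.04, and all 3 points are above 0.5 in both SP clusters, where the interval of Rag2 in the Itm2a cluster spans 0. Rag2 in the Cd74 cluster and Rag2 and Dntt in the Apoe cluster rest on under 20 UMIs, and their intervals span 0.

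Over the 19 clusters, with both libraries summed, the gene whose pattern was most like that of Rag1 among 6996 genes was Rag2 (Pearson's r of log2(CPM + 10) = 0.956), followed by its chromosomal neighbour B230118H07Rik (0.953), 1810059H22Rik (0.952), Wdr78 (0.945) and E430002N23Rik (0.944). Rag2 was most like Rag1, Endou (0.954), A930003A15Rik (0.946), Arpp21 (0.943) and Gpr162 (0.940). Dntt had a different set: Desi1 (0.977), Dgkeos (0.968), Xrcc6 (0.964), 2900079G21Rik (0.960) and Gm525 (0.948). Its r with Rag1 was 0.761 and with Rag2 0.855. The clusters share 2 libraries and differ in depth, and these values describe them only. The order changed within a library: Rag1 had an r of 0.944 with Rag2 and 0.953 with 1810059H22Rik in WT alone, and 0.883 and 0.938 in KO alone. B230118H07Rik was at 222 CPM in the DP clusters of WT and 262 CPM in KO, a log2 ratio of 0.24 (0.17 to 0.31) where Rag1 had -0.09.

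Xrcc6 encodes Ku70, which with Ku80 (Xrcc5) holds the broken ends after RAG cleavage. It was at 481 CPM in the DP clusters of WT and 463 CPM in KO, and at 8.58% and 12.7% of that in the Itm2a cluster. Xrcc5 was at 15.6 CPM in DP and 190% of that in the Itm2a cluster of WT. Lig4, the ligase that seals the joint, stood at 152 CPM in DP cells of WT and its Itm2a and Ms4a4b cluster levels were 10.96% and 7.89% of that.

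Counted over the 18 partners of RAG in end joining and its DNA damage response that were in the matrix, 17 passed the minimum of 20 UMIs in the Itm2a cluster and 3 of these were lower than in DP by log2 2 or more in WT, against 5.81% of all genes, with a median of -0.52 beside -0.20 for all genes. In KO 2 of 17 were, against 4.99%, and Xrcc6 was the lowest in both (-3.54 and -2.97). Nbn, of the MRN complex that senses breaks, was the highest (1.55 and 1.54). Hmgb2, a DNA-bending cofactor of RAG that also marks dividing cells, led the list in the proliferating group at 4.601 and 4.66. Between libraries 1 of 17 partners was past 0.5 in DP cells (Polm, higher at 0.52) with a median of 0.01, where 7.44% of all genes were higher. In the Itm2a cluster 5 of 18 were higher, against 15.8% of all genes, and in the Ms4a4b cluster 6 of 18, against 27%.

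Of 17 transcription factors reported to act on the Rag genes or on recombination, none was past 0.5 between libraries in DP cells, and they ran from Egr1 at -0.39 to Gata3 at 0.14. Id2, an inhibitor of E proteins, was the highest of them in the Itm2a cluster relative to DP (5.55 in WT, 5.74 in KO). Tcf12, an E protein gene, was at 634 CPM in DP cells of WT and 127 CPM in the Itm2a cluster. In the Ms4a4b cluster 8 of 17 were higher in KO past 0.5 and 2 lower, against 27% and 7.03% of all genes, and Id2 was the lowest at -0.83 (-1.05 to -0.61), from 472 UMIs in WT and 259 in KO.

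The receptor genes, which are constant segments of loci that recombination assembles together with Ptcra, followed their own order. Trac, the constant segment of Tcra, was at 153 CPM in the proliferating group of WT, 558 CPM in DP and 1443 CPM in the Cd5 group. Ptcra, the surrogate chain that pairs with a rearranged TCRβ, was at 307 CPM in the Myl10 cluster and 51.9 CPM in DP cells of WT, and at -2.99 on the log2 scale in the Cd5 group relative to DP. Trgc1, a constant segment of the Tcrg locus, was at 677 CPM in the Myl10 cluster and 1.10 CPM in DP cells. None of the 7 was lower by 0.5 between libraries in DP cells (3.08% of all genes were), and Trgc1 was the 1 higher (7.44% of all genes), at 0.88 (-0.08 to 2.01) from 12 UMIs in WT and 32 in KO.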

How the data were processed

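The authors deposited whole-number UMI counts per gene and cell for both libraries, with cluster numbers. The submitters' processing notes name Cell Ranger 3.0.2, STAR, Seurat and mm10. The deposited cells had 203 to 5985 genes each, and the 13683 cells are fewer than the total the study states. From these counts, UMIs were summed per cluster or group and library and divided by all UMIs there. Groups followed the deposited clusters. With 1 library of 5 pooled mice per condition, exact Poisson, conditional binomial and Clopper-Pearson 95% intervals were given in place of tests, and UMIs of a pool are not replicates. Genes with at least 20 UMIs entered each comparison (0.5 added to counts), and a gene was counted past log2 0.5 between libraries or below DP by log2 2. The list members with the lowest and highest ratios and the 5 most similar genes were to be named; any other gene named was picked with its values already known. The values of 1 list gene are not reported here.

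The 3 members and the gene lists were chosen with earlier results of these data known. Scrublet's default threshold called 3 cells in WT and 0 in KO, which has not worked, so the main results keep all cells and an alternative leaves out the 6% highest scores (366 and 454 cells). For shares of cells, each cell was thinned to 1000 UMIs and shallower cells were left out: 37 in WT and 10 in KO for DP, 0 and 1 for the Itm2a, 1 and 0 for the Ms4a4b, and 29 and 11 for the Cd74 cluster. Alternative scalings came from edgeR 4.0.16 (TMM) and DESeq2 1.42.0 (size factors) in R 4.3.3. Other steps used numpy 2.4.6, scipy 1.17.1 and scanpy 1.11.5. Scripts were tested on simulated data. Promoters are from RefSeq (GRCm38.p6), with all 3 genes matched by symbol.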

Additional observations from a re-analysis of the deposited data

Results flagged for a closer look

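With 1 pooled library per condition the difference between conditions was not tested. An interval treats each UMI as independent, although few cells held most Rag1 UMIs in the SP and Cd74 clusters. In some cluster groups the interval of a log2 ratio of KO over WT did not reach 0. For Rag1 this held in the DP clusters (-0.09), the proliferating group (-0.15), the Itm2a cluster (0.52), the Ms4a4b cluster (1.05), the Lars2 cluster (0.19), the Cd74 cluster (0.96) and the Apoe cluster (3.09, from 1 UMI in WT and 21 in KO, 11 of them in 1 cell). For Rag2 it held in the proliferating group (-0.21), the Cd5 group (0.57) and the Ms4a4b cluster (1.52). For Dntt it held in the DP clusters (-0.13), the proliferating group (-0.07), the Myl10 cluster (-0.20), the Itm2a cluster (0.64), the Ms4a4b cluster (1.06) and the Cd74 cluster (0.76).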

How the results depend on the processing

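No log2 ratio of KO over WT whose interval excluded 0 changed sign under an alternative, and shares cannot change sign. Of the ratios whose interval spans 0, Rag2 in DP kept its sign in 8 of 11 alternatives. Dntt in Cd5 kept it in 8 of 11 and Rag1 in Myl10 in 10 of 11. No paired analysis was possible because each condition is 1 library. Adding 1 in place of 0.5, leaving out cells over 10% mitochondrial UMIs and totals without ribosomal and mitochondrial genes moved no value beyond its interval. Log2 ratios of KO over WT: with TMM, DP Dntt was -0.18, DP Rag1 -0.13 and Ms4a4b Rag1 0.79, and with DESeq2 size factors DP Dntt was -0.18 and DP Rag1 -0.14. Thinned cells gave Dntt -0.11 in Cd5 and 0.28 in Itm2a, Rag1 0.10 in Myl10 and -0.053 in proliferating, and Rag2 0.081 in Cd5, 0.27 in Ms4a4b and -0.45 in proliferating. Finer clusters (resolution 1.8 and 2) gave Itm2a Rag1 0.19 and 3.06% of DP in WT. Without the deepest 5% of cells Ms4a4b Dntt was 1.42 and Rag1 1.33, and proliferating Dntt -0.12. Without high doublet scores Ms4a4b Dntt was 0.18 and Itm2a Rag1 0.16. As a mean over cells, Itm2a Dntt was 0.18 and Rag1 0.080, and proliferating Dntt -0.11 and Rag1 -0.23.

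Percent of the DP level: thinned, Dntt was 12.8 (Apoe WT), 8.44 (Cd74 KO), 6.11 (Itm2a KO), 6.30 (Ms4a4b KO) and 2.90 (Ms4a4b WT), Rag1 2.05 (Itm2a WT) and 5.60 (Ms4a4b KO), and Rag2 0 (Cd74 WT) and 5.20 (Ms4a4b WT). Without the deepest cells Ms4a4b WT had Dntt 3.00 and Rag1 2.48. Without high doublet scores Dntt was 4.11 and 2.75 (Itm2a KO, WT) and 2.94 and 2.36 (Ms4a4b KO, WT), Rag1 1.52 and 1.28, then 2.51 and 1.24, and Rag2 0 (Cd74 WT), 2.53 and 1.21 (Ms4a4b KO, WT). As a mean over cells Dntt was 7.39 (Cd74 KO), 5.86 (Itm2a KO), 6.87 and 2.98 (Ms4a4b KO, WT), and Rag1 11.7 (Cd74 KO), 2.55 (Itm2a KO), 4.89 and 2.41 (Ms4a4b KO, WT).

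Thinning changed the percent of cells with a UMI, in WT and KO, to 88.9 and 87.2 (Rag1), 20.3 and 19.8 (Rag2) and 74.7 and 72.4 (Dntt) in DP, to 3.97 and 5.71, 0.209 and 0.317, and 6.05 and 6.98 in Itm2a, and to 5.74 and 8.59, 1.21 and 1.52, and 3.32 and 7.07 in Ms4a4b. In Cd74 it gave 13.2, 2.63 and 7.89 in KO and 0 for Rag2 in WT. With a minimum of 5 or 100 UMIs, 1942 or 284 genes were higher in DP (966 as reported) and 1117 or 88 lower (400), 2576 or 555 higher in Itm2a (1548) and 1382 or 200 lower (654), and 3891 or 1168 higher in Ms4a4b (2593) and 1345 or 218 lower (674), since the minimum sets how many genes enter. Depth limits Rag2 in the SP clusters, with 10 to 40 UMIs there. Of the 5 genes most like Rag1, 1 was among the 5 in WT alone and 3 in KO alone, and for Rag2 3 and 0. The cause of the other moves was not tested.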
